A study of Solanum lycopersicum with 12 samples.

Results

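Light-harvesting chlorophyll a/b-binding (Cab) proteins and the small subunit of Rubisco (RbcS) are plastid proteins encoded in the nucleus by families of near-identical gene copies. Cab proteins hold chlorophyll a and b in the antennae that pass absorbed light to the photosystems, and RbcS assembles with the large subunit, made inside the plastid, into the enzyme that fixes CO2. Transcripts of both families are abundant in green tissue and are textbook cases of regulation by light, the circadian clock and development, and abscisic acid (ABA) is known as a hormone of water deficit that can hold photosynthetic genes down.

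The 10 genes described are the rows of the deposited count table whose ID, without its version number, is one of 7 listed Cab IDs or 3 listed RbcS IDs, out of 34075 IDs in all. All 10 were found, and all 10 passed the filter on low counts. By their numbering, 5 Cab and 2 RbcS members lie on chromosome 2, and 2 Cab members and 1 RbcS member on chromosome 3. The RefSeq gene table of assembly SLM_r2.1 has Cab symbols on chromosome 2 (4 genes) and chromosome 3 (3 genes), and RbcS symbols on chromosome 2 (3 genes) and chromosome 3 (1 gene). The numbers do not match copy for copy, with 5 Cab members on chromosome 2 beside 4 Cab symbols. None of the 41476 RefSeq entries holds an ID of the Solyc kind, so no copy is given a symbol, a position or a sequence here, and the family of each ID is as sure as the list it comes from.

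Wild-type tomato (Solanum lycopersicum) seedlings taken 3 days after germination were kept for 8 days in 3 ml of liquid Murashige and Skoog medium at 22 °C in long days (16 h light, 8 h dark). For the last 3 h, fresh medium held 10 µM ABA, 20 µM iSB09, which the series' title describes as eliciting ABA-responsive gene expression, or, as mock, 0.1% DMSO. Each of these 3 groups has 3 libraries from whole seedlings, described as independent biological replicates, with no batches recorded. DMSO is recorded for the mock medium alone, so a difference in solvent and a treatment effect cannot be told apart. Seedlings given 10 µM iCB are not analysed here, because no column of the table carries a name found in their labels.

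The 9 libraries held 21863058 to 22098966 counts, and the 10 members together took 2.51% to 3.27% of each. Levels are in CPM, counts per 1e6 reads after trimmed-mean (TMM) scaling of the library sizes, and are compared between libraries and not between genes, since no transcript lengths were used. A gene is called changed at an adjusted p under 0.05 in edgeR's quasi-likelihood test with Benjamini-Hochberg adjustment over all 21424 IDs tested. The libraries did carry the hormone response: Solyc03g096670, an ID listed as ABA-responsive, averaged 256 CPM in ABA and 56.4 CPM in iSB09, against 4.59 CPM in mock. That ID was chosen with earlier results of these data known, so its rise is given as a description. The seedlings were sequenced in bulk, so fewer green cells and less RNA per green cell cannot be told apart.

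The first question was what the hormone did to these transcripts within 3 h. None of the 10 members rose or fell after ABA, where 19.7% of all IDs tested were called. None had an unadjusted p under 0.05 either, and none was called by DESeq2 or by limma voom. The smallest adjusted p was 0.393, and for 10 of 10 members the ABA libraries overlapped the mock libraries, while 38.3% of all IDs tested had libraries that did not overlap between these groups. The members moved together between replicates and had larger standard errors than the median ID tested, as given below. These counts are thus not 10 separate observations, and by themselves they do not set the members apart.

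The Cab members of chromosome 2 come first. Solyc02g070940 stood at 3264, 3598 and 4095 CPM in ABA replicates 1 to 3, at 3318, 4954 and 2813 CPM in iSB09 replicates 1 to 3, and at 4608, 5138 and 3584 CPM in mock replicates 1 to 3. Mock replicates 1 and 2 were thus above every ABA library, but mock replicate 3 lay inside the ABA range, and iSB09 replicate 2 lay among the high mock libraries. Its mean was 3652 ± 418 CPM in ABA and 3695 ± 1119 CPM in iSB09, against 4443 ± 790 CPM in mock (SD, n = 3 each). On the log2 scale ABA against mock was -0.28 ± 0.22 (SE; 95% interval -0.78 to 0.21, adjusted p = 0.428) and iSB09 against mock was -0.27 ± 0.22 (-0.76 to 0.23, adjusted p = 0.541).

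Solyc02g071000, another antenna gene of that run of IDs, was measured at 1611, 1756 and 2370 CPM in ABA, 1619, 2097 and 1350 CPM in iSB09, and 2120, 2172 and 1422 CPM in mock. Its highest and lowest libraries were an ABA and an iSB09 library, with mock libraries between them, so the 3 groups overlapped fully. The fitted log2 fold change was 0.0056 ± 0.22 for ABA against mock (95% interval -0.48 to 0.50, adjusted p = 0.99) and -0.17 ± 0.22 for iSB09 against mock (-0.66 to 0.32, adjusted p = 0.7). Solyc02g070950 ranged over 1449 to 2173 CPM in ABA and 1379 to 2141 CPM in iSB09, against 1362 to 2125 CPM in mock. Solyc02g070970 ranged over 1737 to 2353 CPM in ABA and 1455 to 2480 CPM in iSB09, against 1469 to 2436 CPM in mock, and Solyc02g070980 over 1317 to 2134 CPM in ABA and 1274 to 2025 CPM in iSB09, against 1251 to 2045 CPM in mock. For these 3 genes the ranges of all 3 groups overlapped widely, with log2 fold changes against mock of -0.04, -0.08 and -0.07 after ABA and -0.13, -0.16 and -0.15 after iSB09.

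On chromosome 3, Solyc03g005760 had 3217, 3113 and 3663 CPM in ABA, 2851, 3994 and 2671 CPM in iSB09, and 3750, 4133 and 2970 CPM in mock. The ABA libraries were the tightest of its groups and lay inside the mock range. Its log2 fold change was -0.12 ± 0.19 for ABA against mock (95% interval -0.54 to 0.30, adjusted p = 0.718) and -0.19 ± 0.19 for iSB09 against mock (-0.61 to 0.23, adjusted p = 0.613). Solyc03g005780 had 307, 323 and 426 CPM in ABA, 475, 532 and 308 CPM in iSB09, and 487, 516 and 312 CPM in mock. Here iSB09 and mock shared a pattern of 2 high libraries and 1 low one, and the ABA libraries lay below the 2 higher libraries of each. Its -0.32 ± 0.23 for ABA against mock was the farthest from 0 of the 10 members (95% interval -0.83 to 0.20, adjusted p = 0.393), and iSB09 against mock was -0.0010 ± 0.23 (-0.52 to 0.51, adjusted p = 0.998).

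The RbcS members, which supply the small subunit, gave no call. All 3 were above 0 for ABA against mock, and 2 were for iSB09 against mock. Solyc03g034220 was at 7838, 9929 and 11660 CPM in ABA, 8726, 11200 and 9128 CPM in iSB09, and 8614, 10170 and 8163 CPM in mock. ABA libraries held both ends of its range. Its mean was 9808 ± 1913 CPM in ABA and 9685 ± 1328 CPM in iSB09, against 8982 ± 1053 CPM in mock (SD, n = 3 each), with a log2 fold change of 0.13 ± 0.20 for ABA against mock (95% interval -0.31 to 0.56, adjusted p = 0.712).

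Solyc02g063150 was at 3826, 4031 and 4930 CPM in ABA, 3888, 4769 and 4452 CPM in iSB09, and 3724, 4655 and 3468 CPM in mock. The mock group had its lowest library, but mock replicate 2 was among the higher ones. The log2 fold change was 0.11 ± 0.17 for ABA against mock (95% interval -0.27 to 0.49, adjusted p = 0.71) and 0.15 ± 0.17 for iSB09 against mock (-0.23 to 0.52, adjusted p = 0.671). Solyc02g085950 received 870, 963 and 1172 counts in ABA, 854, 927 and 816 in iSB09, and 1131, 1128 and 786 in mock, or 38.7, 44.7 and 56.1 CPM, 37.9, 44.5 and 35.8 CPM, and 51.5, 52.7 and 34.0 CPM. All 3 iSB09 libraries lay inside the mock range, at -0.23 ± 0.18 on the log2 scale (95% interval -0.62 to 0.17, adjusted p = 0.515).

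**Figure D1:**
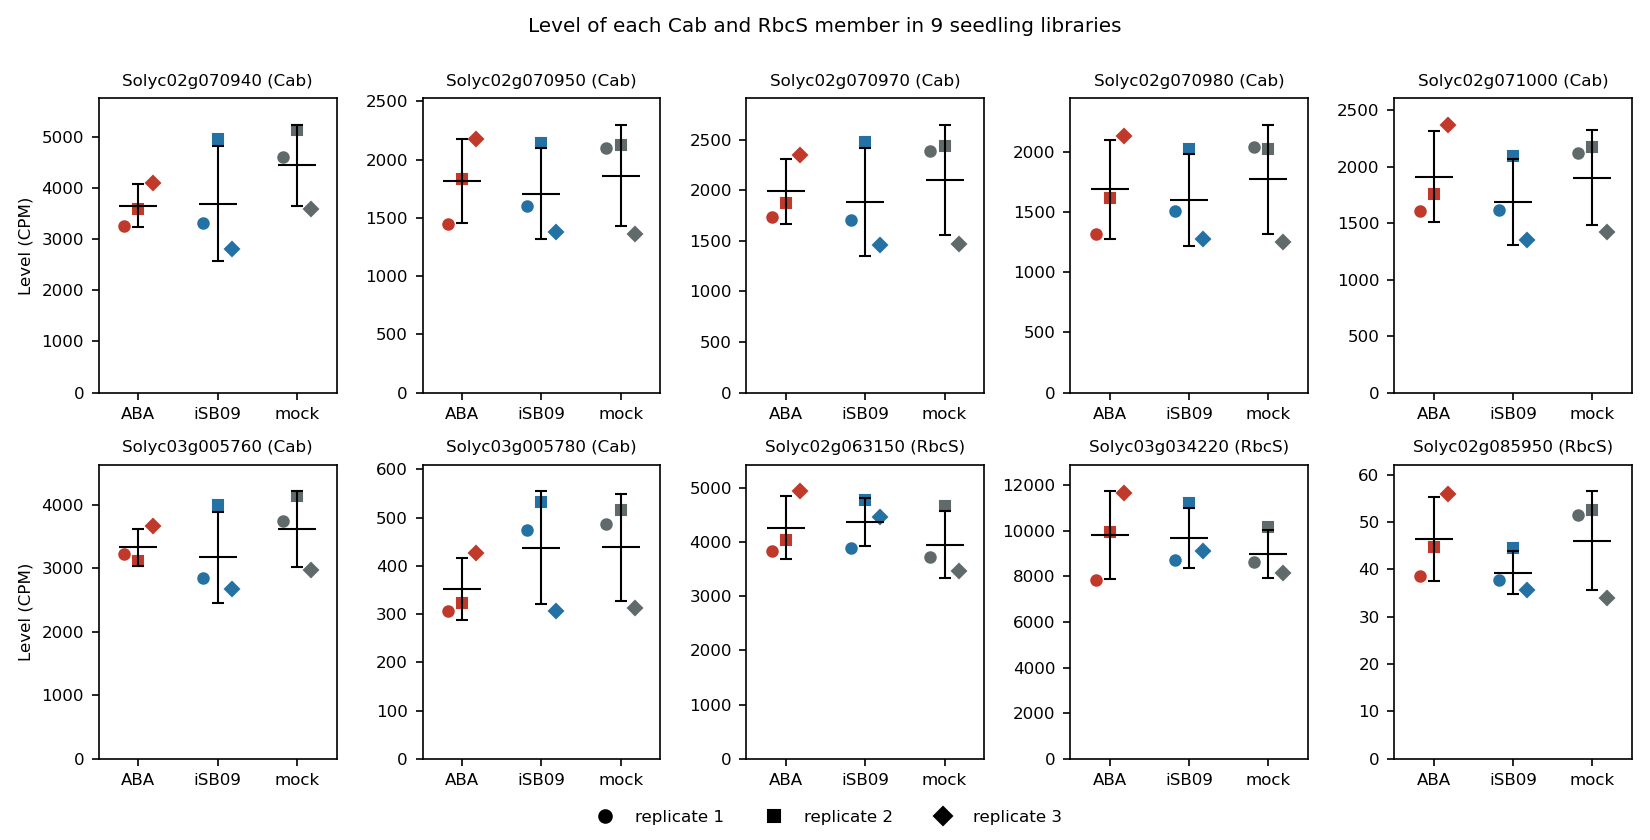
Level in CPM (linear axis from 0) of each of the 10 members in ABA, iSB09 and mock libraries; symbols mark replicates, and the black bar and whiskers are the group mean and SD (n = 3). In every panel the 3 groups overlap, and replicate 3 is the lowest mock library while replicate 2 is the highest iSB09 library.

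Of the group means, mock was the highest for 6 of 7 Cab members and ABA for the remaining 1, and for the 3 RbcS members ABA was the highest for 2 and iSB09 for 1. These orders are smaller than the spread: no neighbouring groups in them were separated by the test in any member. The median log2 fold change for ABA against mock was -0.08 over the Cab members and 0.11 over the RbcS members, beside a median of -0.0040 over all IDs tested. For iSB09 against mock the medians were -0.16 and 0.11, beside -0.0029 over all IDs tested. Both comparisons use the same mock libraries.

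After iSB09, 0 of 10 members passed the test, where 5.11% of all IDs were called. With so low a share over all IDs, 0 of 10 does not set the members apart. Again none had an unadjusted p under 0.05 and none was called by DESeq2 or limma voom. The smallest adjusted p was 0.515, and 0 of 10 members had libraries that did not overlap with mock, against 22.5% of all IDs tested.

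In the direct comparison of 20 µM iSB09 with 10 µM ABA, which differ in dose as well as in compound, 0 of 10 members passed, where 5.87% of all IDs were called. Here too the share over all IDs is too low for 0 of 10 to set the members apart. None had an unadjusted p under 0.05, none was called by DESeq2 or limma voom, and 0 of 10 had separate libraries, against 23.1% of all IDs. Solyc03g005780 was the farthest from 0, at 438 ± 117 CPM in iSB09 and 352 ± 64.5 CPM in ABA, a log2 fold change of 0.32 ± 0.23 (95% interval -0.20 to 0.83, adjusted p = 0.607). The other 9 members lay between -0.24 and 0.04.

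A test that is not passed does not show that the transcripts stayed level, so the intervals give what these libraries can bear. Over the 10 members, the 95% intervals for ABA against mock reached down to a 1.78-fold decrease and up to a 1.48-fold increase. For iSB09 against mock they reached a 1.69-fold decrease and a 1.46-fold increase, and for iSB09 against ABA a 1.59-fold decrease and a 1.78-fold increase. The IDs called after ABA had a median absolute log2 fold change of 0.87. That size lies beyond every one of the members' intervals in that comparison, though only just for Solyc03g005780, whose interval reached -0.83. Called IDs are selected for large changes, so 0.87 is not the size of a typical ABA effect. Changes inside the members' intervals cannot be told from none with these libraries. The SE of the members' log2 fold changes was 0.17 to 0.25 (median 0.22), against a median of 0.15 over all IDs tested. Counting error is not the limit, since members other than Solyc02g085950 had at least 6902 reads in every library.

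**Figure D2:**
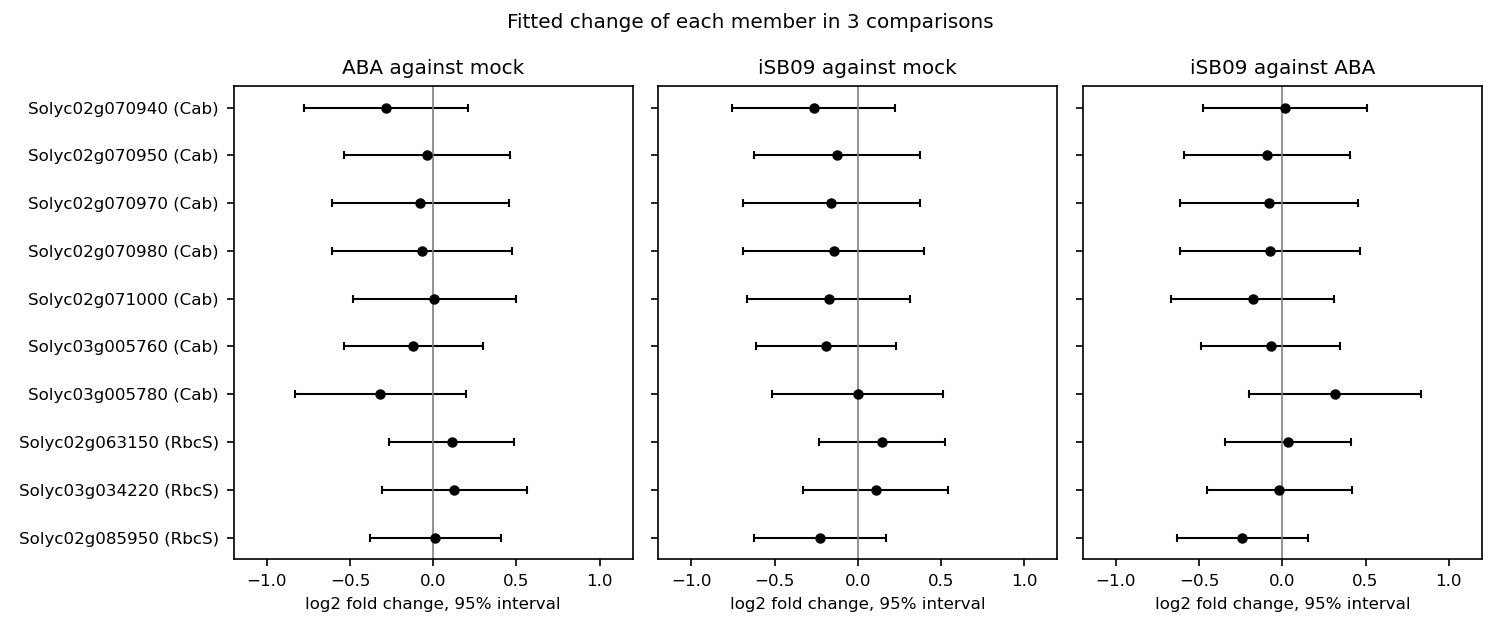
Fitted log2 fold change (points) with its 95% interval (bars) for each member in ABA against mock, iSB09 against mock and iSB09 against ABA; positive values are higher in the group named first. Every interval includes 0, and the lowest bound is -0.83, for Solyc03g005780 in ABA against mock.

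The members' levels moved together between replicates of a treatment. ABA replicate 3 was the highest ABA library for 10 of 10 members, iSB09 replicate 2 the highest iSB09 library for 10 of 10, and mock replicate 3 the lowest mock library for 10 of 10. ABA replicate 1 was the lowest of its group for 9 members, iSB09 replicate 3 for 8, and mock replicate 2 was the highest of its group for 9. Averaged over the members and relative to each gene's mean over the 9 libraries, log2 CPM was -0.22, -0.05 and 0.26 in ABA replicates 1 to 3, -0.12, 0.27 and -0.29 in iSB09 replicates, and 0.18, 0.28 and -0.30 in mock replicates. With all 9 libraries fitted, the span of these means inside each treatment exceeded every member's fitted difference between treatments. A span of single libraries is wider by nature than a difference of group means, so this does not weigh treatment against replicates.

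Compared with other abundant genes, the Cab members varied much between replicates. The SD of log2 CPM within groups was 0.37 for Solyc02g070980, 0.36 for Solyc03g005780 and 0.30 for Solyc02g070940, against a median of 0.15 to 0.16 over the 1000 IDs nearest to each in mean level. That median was 0.1557 for every member except Solyc03g005780 (0.148) and Solyc02g085950 (0.1291). Most members thus had largely the same 1000 IDs beside them, a set of abundant IDs and not genes of closely matched level. Solyc02g070980 was above 96.7% of its 1000 IDs, Solyc02g070940 above 91.7% and Solyc03g005760, the steadiest Cab member with an SD of 0.24, above 81.5%. Among RbcS members, Solyc02g063150 had an SD of 0.19 (above 65.3%), Solyc03g034220 0.22 (above 76.3%) and Solyc02g085950 0.27 (above 93.0%).

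The level of the members moved with the scaling of the libraries. Across the 9 libraries, Pearson's r between the members' mean centred log2 CPM and the TMM factor was -0.896, given as a description, since the factor itself enters the CPM. TMM factors ran between 0.951 in iSB09 replicate 2 and 1.046 in mock replicate 3, which are also the libraries at opposite ends of the second principal component of all IDs tested (11.97% of the variance). With plain library totals the SDs were smaller, 0.31 for Solyc02g070980 and 0.15 for Solyc02g063150, and still 0 of 10 members passed in each comparison. The part of the scaling in the members' replicate spread was not tested beyond this.

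Mock replicate 3 was the lowest mock library and iSB09 replicate 2 the highest iSB09 library for all 10 members, so leaving out both moved the comparison with mock downwards. That fit was chosen after seeing the data, and the choice fixed its direction. Mock replicate 2 and iSB09 replicate 3, with members' means of 0.28 and -0.29, lay about as far out the other way and were kept. In that fit the median log2 fold change of the Cab members was -0.53 for iSB09 against mock and -0.27 for ABA against mock. All 7 of 7 were below 0 in each, where all 9 libraries gave 7 for iSB09 and 6 for ABA. Still 0 of 10 members passed. The smallest adjusted p was 0.0639 for iSB09 against mock, for Solyc02g070940 at a log2 fold change of -0.67, and 0.0901 for ABA against mock, for Solyc03g005780 at -0.51.

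**Figure D3:**
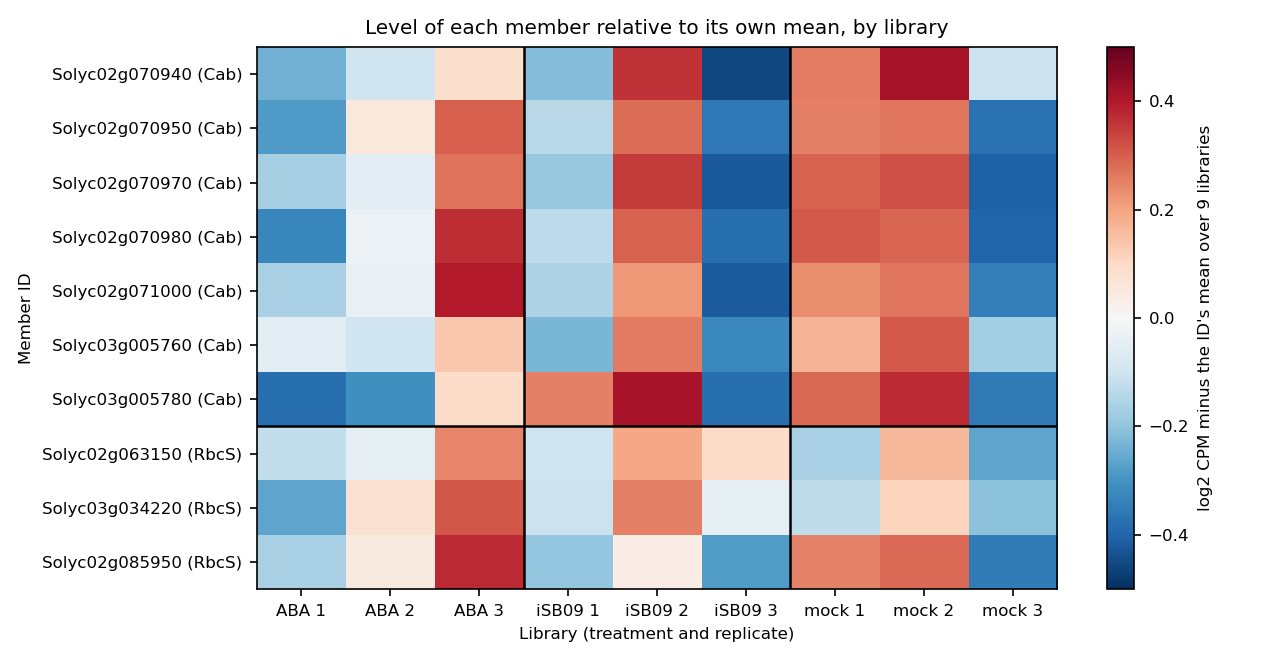
Log2 CPM of each member minus its mean over the 9 libraries (colour scale, red above and blue below the mean), with libraries in columns by treatment and members in rows, Cab above RbcS. In ABA replicate 3, iSB09 replicate 2 and mock replicate 2, 10 of 10 members are above their mean. In ABA replicate 1 and mock replicate 3, 0 are.

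Within groups, the copies followed each other closely. Over deviations of the 9 libraries from their group means, the 21 pairs of Cab members had a median Pearson's r of 0.932, from 0.86 between Solyc03g005760 and Solyc03g005780, which lie in the same run of IDs, up to 0.994 between Solyc02g070950 and Solyc02g070980. The 3 pairs of RbcS members had 0.776 to 0.883, and the 21 pairs of a Cab with an RbcS member a median of 0.782. With plain library totals the medians were lower, at 0.91 for Cab pairs, 0.694 for RbcS pairs and 0.648 for mixed pairs, of which the lowest was 0.343 (0.561 with TMM). Solyc02g085950 was closer to the Cab members (median r 0.931) than to the other RbcS members (0.776 and 0.804), and Solyc02g063150 was the reverse (0.707 with Cab members). All pairs share libraries, scaling and, for near-identical copies, possibly reads, so these values are descriptions without a test.

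The division of reads among copies varied less between replicates than the levels did. Solyc02g070940 held 25.3%, 25.5% and 23.8% of the summed counts of the 7 Cab members in ABA, 25.4%, 27.2% and 25.0% in iSB09, and 26.3%, 27.7% and 29.0% in mock. The ABA shares lay below all mock shares, with the iSB09 shares overlapping both. Solyc03g005780 held 2.38%, 2.29% and 2.47% in ABA, 3.63%, 2.92% and 2.73% in iSB09, and 2.78%, 2.78% and 2.52% in mock, so its ABA shares too were the lowest and separate from both other groups. The gap to mock was narrow, from 2.473% in ABA replicate 3 to 2.523% in mock replicate 3. Solyc02g071000 held 12.5%, 12.4% and 13.8% in ABA, above its 11.5% to 12.4% in iSB09 and 11.5% to 12.1% in mock, though the lowest ABA share, 12.44%, was close to the highest iSB09 share, 12.38%.

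The remaining 4 Cab members had shares that overlapped between groups in each comparison, such as 22.8% ± 1.9 in ABA and 22.5% ± 1.1 in iSB09, against 22.6% ± 1.3 in mock, for Solyc03g005760 (SD, n = 3 each). Among the RbcS members, Solyc02g085950 held 0.299%, 0.278% and 0.263% of their summed counts in iSB09, below its 0.331%, 0.319% and 0.337% in ABA, and its 0.416%, 0.354% and 0.292% in mock overlapped both. The other RbcS members had shares that overlapped in each comparison. The SD of the log2 share within groups was 0.063 for Solyc02g070940, against 0.30 for its log2 level, and 0.14 for Solyc03g005780, against 0.36. Shares of a fixed total are tied to each other, and how the counting assigned reads that match several copies is not given in the sources used here. No test was made of them, and the members whose shares separated were picked out after their values were seen. How often shares of other IDs separate in this way was not computed.

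**Figure D4:**
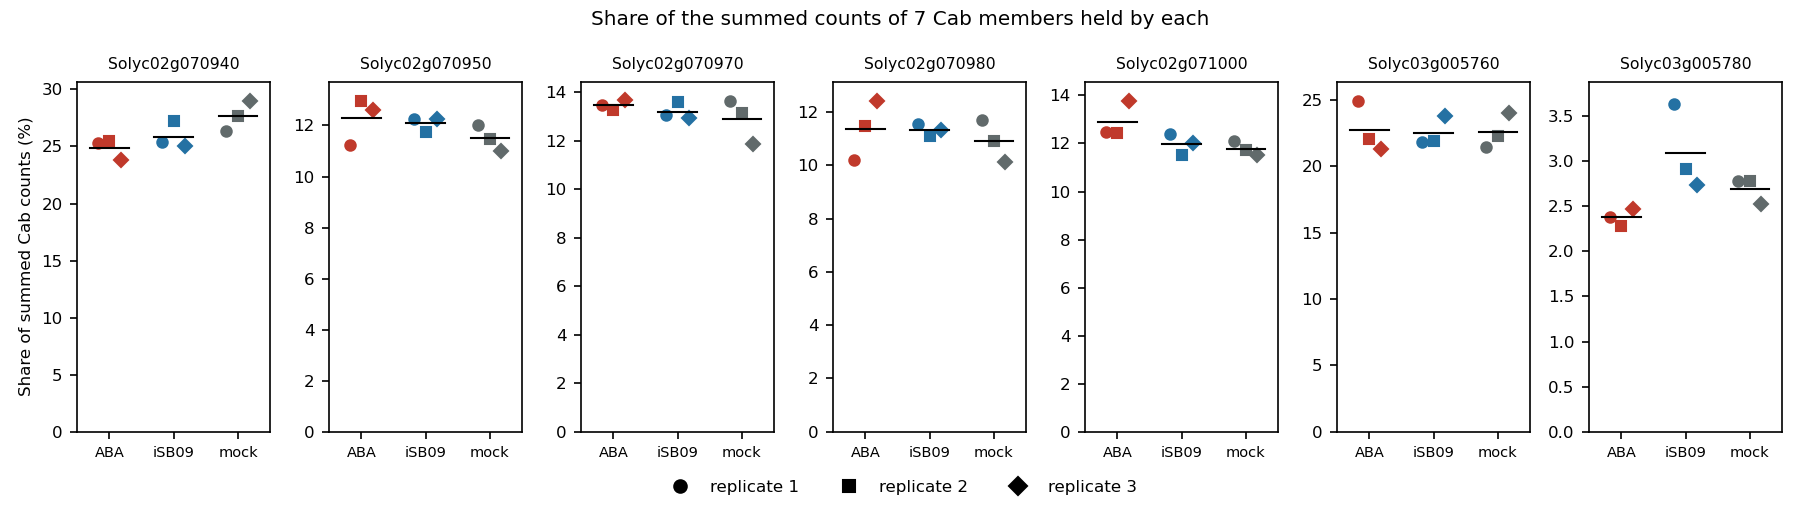
Percentage of the summed counts of the 7 Cab members held by each of them in ABA, iSB09 and mock libraries (linear axis from 0; symbols mark replicates 1 to 3, black lines are group means). Solyc02g070940 and Solyc03g005780 lie lower in all ABA libraries than in all mock libraries, at means of 24.9% and 2.38% in ABA against 27.7% and 2.70% in mock. Solyc02g071000 lies higher in all ABA libraries than in all mock libraries, at means of 12.9% in ABA against 11.8% in mock. For Solyc03g005780 the gap between the groups is narrow, and the shares were not tested.

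Sums over a family leave aside how counted reads were divided among its listed copies. The 7 Cab members together had 12900, 14120 and 17210 CPM in ABA, 13080, 18220 and 11250 CPM in iSB09, and 17500, 18540 and 12370 CPM in mock. The 3 RbcS members together had 11700, 14000 and 16640 CPM in ABA, 12650, 16010 and 13620 CPM in iSB09, and 12390, 14880 and 11660 CPM in mock. In both sums all groups overlapped. The ratio of ABA to mock means was 0.914 for Cab and 1.09 for RbcS, and the ratio of iSB09 to mock means was 0.879 for Cab and 1.09 for RbcS. RbcS counts per Cab count were 0.907, 0.992 and 0.967 in ABA and 0.967, 0.879 and 1.21 in iSB09, against 0.708, 0.802 and 0.943 in mock, where replicate 3 overlapped both treatments.

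Neighbouring IDs in the same runs gave no call either. Between the first and last ID of each run, widened on chromosome 2 to Solyc02g071030, 4 further IDs were tested, and none passed in any comparison (adjusted p at least 0.572). Over all IDs tested, 19.7% were called for ABA against mock, 5.11% for iSB09 against mock and 5.87% for iSB09 against ABA. With only 4 IDs, the lack of a call does not set them apart. Solyc02g071020, with 2 to 21 counts per library, was too low to test. Solyc02g070990 averaged 1507 CPM in ABA and 1369 CPM in iSB09, against 1627 CPM in mock. Solyc02g071010 averaged 3968 CPM in ABA and 3718 CPM in iSB09, against 3916 CPM in mock. Solyc02g071030 averaged 3978 CPM in ABA and 3640 CPM in iSB09, against 3991 CPM in mock, and Solyc03g005770 averaged 1493 CPM in ABA and 1342 CPM in iSB09, against 1532 CPM in mock. For all 4 the libraries of the groups overlapped. Over all IDs tested, 38.3% did not overlap for ABA against mock, 22.5% for iSB09 against mock and 23.1% for iSB09 against ABA. The log2 fold changes of the 4 IDs ran between -0.25 and 0.02 over the 3 comparisons.

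The wider apparatus was followed with 50 IDs outside the members, listed from general knowledge as antenna, photosystem and carbon-fixation genes, of which 49 were tested. They include 3 of the neighbouring IDs above, Solyc02g071010, Solyc02g071030 and Solyc03g005770. None of them was called by edgeR, DESeq2 or limma voom in any of the 3 comparisons. At an unadjusted p under 0.05 there were 1, 0 and 0 in ABA against mock, iSB09 against mock and iSB09 against ABA. Over all IDs tested, edgeR called 19.7%, 5.11% and 5.87% in these comparisons. The list was chosen with earlier results of these data known. Many of its IDs shift together between libraries, so they are not 49 separate observations. For ABA against mock the median log2 fold change was 0.03 over 20 antenna IDs, 0.07 over 17 photosystem IDs and 0.03 over 12 carbon-fixation IDs. The smallest p values there were those of Solyc02g085940, at 1.71 CPM in ABA and 0.983 CPM in mock (log2 fold change 0.79 ± 0.31, adjusted p = 0.106), and Solyc06g069000, at 10.1 CPM in ABA and 12.1 CPM in mock (-0.26 ± 0.14, adjusted p = 0.244). Without ABA replicate 1, Solyc02g085940 passed, at 1.03 (adjusted p = 0.0455).

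For iSB09 against mock the medians were -0.05, -0.00012 and 0.09 over the antenna, photosystem and carbon-fixation IDs, and the smallest p values belonged to Solyc02g085940 (0.57 ± 0.32, adjusted p = 0.351) and Solyc07g066150 (-0.25 ± 0.15, adjusted p = 0.386). For iSB09 against ABA they were -0.08, -0.09 and 0.05, led by Solyc02g085930 (0.31 ± 0.18, adjusted p = 0.486) and Solyc07g066150 (-0.23 ± 0.15, adjusted p = 0.55). Without mock replicate 3 and iSB09 replicate 2, Solyc08g067320 fell after iSB09, by 0.60 on the log2 scale (adjusted p = 0.0351). With all libraries its log2 fold change was -0.09 (adjusted p = 0.864).

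The IDs most like the members were sought among 12713 others with a mean of at least 10 CPM. Over the 9 libraries, log2 CPM of Solyc07g047850 had the highest Pearson's r with the members' mean, at 0.985, followed by Solyc02g090030 and Solyc01g105050 at 0.984, Solyc03g005770 at 0.972 and Solyc12g044280 at 0.970. All 5 belong to the list of photosynthesis IDs. Of 47 such IDs at that level, 15 (31.9%) had an r of at least 0.9, as did 51 of the 12713 (0.401%), and the median r was 0.864 over the list and -0.02 over all. The members themselves had r between 0.584 for Solyc02g063150 and 0.984 for Solyc02g070980 with the mean of the others. The 9 libraries share treatments, scaling and replicate shifts, and these values are descriptions.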

How the data were processed

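The authors deposited 1 table of read counts per gene ID, whole numbers that were used as given. Among tools, FastQC, cutadapt, STAR and DESeq2 are listed in the submitters' processing notes, without versions or roles. The library kit was strand-specific, per the labels' protocols. Build, annotation and counting (its strand setting included): not given in the sources used here, so reads shared by near-identical copies may have been split or dropped. Columns were matched to samples by name; 3 columns with a name in no label were not used. They may be the 3 iCB samples, which no column name matched and which are not analysed here, and the fits planned over 4 treatments were made over 9 libraries of 3. Of 34075 IDs, 7403 had no read.

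IDs passing filterByExpr were fitted genome-wide with edgeR 4.0.16 in R 4.3.3 (TMM, 1 coefficient per treatment, glmQLFit and glmQLFTest, two-sided; common biological coefficient of variation 0.14), which was tested on simulated data. The simulation drew each ID independently, with no shift shared within a library. It does not cover IDs that move together as the members do. SEs come from the F statistic. Adjusted p is Benjamini-Hochberg over all IDs tested. P-values set differences between groups against the spread between replicates. That spread is pooled over the groups, with each ID's estimate drawn towards that of other IDs. The series' design text calls the replicates independent. Log2 CPM for spreads and correlations used a prior count of 2. Alternatives were DESeq2 1.42.0, limma 3.58.1 voom, other scalings and filters, a replicate block, single comparisons and leaving out libraries.

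All 10 members are named. The rule for other names allows the 5 IDs with the highest correlation with the members' mean, the 2 listed photosynthesis IDs with the smallest p per comparison, and all tested IDs of the same runs. The listed IDs were not checked against an annotation. Members and lists were chosen with earlier results of these data known. Replicates differed by more than counting noise in every pair (chi-square divided by its degrees of freedom, 6.67 to 25.2), so each was counted separately.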

Additional observations from a re-analysis of the deposited data

How the results depend on the processing

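No member was called in any of the 3 comparisons under any of 19 alternatives, iCB comparisons not being run. Adjusted p went down to 0.143 (ABA against mock), 0.176 (iSB09 against mock) and 0.315 (iSB09 against ABA) without 1 library. Signs of values near 0 turned, and the cause was not tested. Labels share replicate numbers, but same-numbered libraries did not all deviate together (r -0.185 to 0.341), and not every library matched its own number best. With a replicate block all IDs called numbered 3904, 1006 and 1164, against 4211, 1095 and 1257, and 1 member's sign turned (Solyc02g070940, iSB09 against ABA, -0.0273). Its value was -0.0163 with voom. Calls over all IDs moved by over 1.5 times for iSB09 against mock, to 676 without iSB09 replicate 3, 655 without mock replicate 2 and 700 with only those groups, and for iSB09 against ABA, to 730 without ABA replicate 1 and 710 without ABA replicate 2. They moved by less elsewhere, as to 2838 for ABA against mock without ABA replicate 2 and 1597 for iSB09 against mock with DESeq2.

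With library totals, ABA against mock was -0.0244 for Solyc02g071000 and -0.0166 for Solyc02g085950, and iSB09 against ABA was 0.00977 for Solyc03g034220. For Solyc03g005780, iSB09 against mock was 0.00644 with DESeq2, 0.00643 with median-of-ratios factors and 0.00372 with only those groups. Without mock replicate 3 and iSB09 replicate 2, ABA against mock was -0.167 for Solyc02g071000 and -0.165 for Solyc02g085950, iSB09 against mock was -0.00733 for Solyc02g063150 and -0.0739 for Solyc03g034220, and iSB09 against ABA was -0.25 for Solyc02g070940 and -0.0317 for Solyc02g063150. There 1 listed photosynthesis ID fell after iSB09, and the list's median was -0.25.

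Leaving out single libraries, ABA against mock ranged from -0.22 to 0.10 for Solyc02g070950, -0.28 to 0.0427 for Solyc02g070970, -0.27 to 0.0821 for Solyc02g070980, -0.18 to 0.12 for Solyc02g071000, -0.00673 to 0.25 for Solyc02g063150, -0.0153 to 0.27 for Solyc03g034220 and -0.17 to 0.13 for Solyc02g085950. With no turn of sign it ranged from -0.42 to -0.17 for Solyc02g070940, -0.24 to -0.0128 for Solyc03g005760 and -0.51 to -0.18 for Solyc03g005780, in each case lowest without mock replicate 3 and nearest 0 without mock replicate 2. The count of listed photosynthesis IDs that rose was 0 to 1. The range of iSB09 against mock was -0.32 to 0.00762 for Solyc02g070950, -0.20 to 0.20 for Solyc03g005780 and -0.00896 to 0.21 for Solyc03g034220. With no turn of sign it was -0.54 (without iSB09 replicate 2) to -0.10 (without iSB09 replicate 3) for Solyc02g070940, -0.41 to -0.00332 for Solyc02g070970, -0.35 to -0.00455 for Solyc02g070980, -0.36 to -0.0356 for Solyc02g071000, -0.39 to -0.0797 for Solyc03g005760, 0.0605 to 0.28 for Solyc02g063150 and -0.40 to -0.12 for Solyc02g085950. The range of iSB09 against ABA was -0.25 to 0.18 for Solyc02g070940, -0.29 to 0.0583 for Solyc02g070950, -0.33 to 0.0740 for Solyc02g070970, -0.28 to 0.13 for Solyc02g070980, -0.37 to 0.00431 for Solyc02g071000, -0.27 to 0.0391 for Solyc03g005760, -0.0364 to 0.15 for Solyc02g063150 and -0.16 to 0.12 for Solyc03g034220, and, with no turn of sign, 0.15 to 0.52 for Solyc03g005780 and -0.36 to -0.0832 for Solyc02g085950.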
